A study of Mus musculus with 15 samples.

Results

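Small leucine-rich proteoglycans are secreted matrix proteins whose core folds into leucine-rich repeats, and most of them carry chondroitin, dermatan or keratan sulfate chains. They coat collagen fibrils and limit how thick these grow. Decorin and biglycan are also known to hold growth factors of the transforming growth factor β family, and in muscle biglycan binds the dystroglycan and sarcoglycan complex at the surface of the fibre. The 7 genes described here are Dcn (decorin), Bgn (biglycan) and Aspn (asporin) of class I, Fmod (fibromodulin), Lum (lumican) and Prelp (prolargin) of class II, and Ogn (osteoglycin) of class III. They were taken by symbol from a table of 23352 genes. Of the 7, 6 were among the 11945 genes tested, which needed at least 1 fragment per kilobase of transcript per M mapped (FPKM) in at least 3 libraries, and Lum was not tested.

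Messenger RNA was measured in C2C12 cells, a line of mouse myoblasts, in 15 libraries that form 5 groups of 3. All groups were transduced with lentivirus. The overexpression groups received wild-type MLX (MLX-WT) or a dominant-negative MLX (MLX-DN), and their control was a vector expressing GFP alone (GFP control, titled MCS). The knockdown group received an shRNA against Mlx (MLX shRNA), and its control a non-targeting one (NT shRNA). MLX, a helix-loop-helix leucine zipper factor, binds E-box DNA together with partners such as MondoA and ChREBP. The promoter that drives the MLX inserts, the number of shRNA sequences and clones, and the day of harvest are unstated in the labels. The labels leave unsaid if a group's 3 libraries are from separate cultures. The p-values therefore reflect the scatter of these libraries alone, and that scatter may be technical.

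Mlx itself was at 17.1 ± 0.516 FPKM (SD, n = 3) in the GFP control, 17.1 ± 0.778 with NT shRNA and 3.21 ± 0.645 with MLX shRNA. It was at 644 ± 11.6 where wild-type MLX was added and 394 ± 8.76 where the dominant-negative form was, so its level followed the labels in every group. The estimated depth was 37.0 to 82.4 M reads per library, and libraries of a group correlated at a lowest r of 0.998. Muscle-precursor markers (Myod1, Myf5, Des, Cdh15 and Pax7) summed to 1393 to 1410 FPKM in the GFP control and 1344 to 1378 in MLX-WT libraries. Their sum was 1247 to 1310 in the MLX-DN, 1349 to 1423 in the NT shRNA and 1260 to 1375 in the MLX shRNA libraries. Myod1 was a small part of it, with means of 61.1, 80.1, 64.5, 94.8 and 74.5 FPKM in these 5 groups, as ordered here. Of the 5 genes, 3 were higher and 1 lower with MLX-WT than in the GFP control (limma adjusted p under 0.05). Of all tested genes, 27.6% were higher and 42.7% lower there. Differentiated-muscle markers (5 of 6 in the table) summed to between 4905 and 5013 FPKM in GFP control libraries, and to between 5172 and 5273 in MLX-WT libraries. The sum was 4146 to 4349 in the MLX-DN, 4039 to 4178 in the NT shRNA and 5048 to 5453 in the MLX shRNA libraries. Fibroblast markers (Pdgfra, Thy1, Ly6a, Tcf21 and Dpt) summed to 53.2 to 54.6, 69.1 to 70.5, 35.6 to 36.6, 74.6 to 77.3 and 49.2 to 52.2 FPKM in the same order, with Tcf21 at 0 and Thy1 near 0 in every group. Ly6a made up most of that sum. Cartilage and bone markers (6 genes) summed to 12.9 to 13.7, 17.9 to 18.8, 13.7 to 15.5, 15.9 to 16.5 and 18.6 to 20.4 FPKM, with Acan and Col2a1 at or near 0. The bone gene Bglap averaged 3.29 FPKM in MLX-WT, 2.81 in MLX-DN and 3.05 in MLX shRNA libraries, beside 0.264 in the GFP control and 0.432 with NT shRNA. With MLX-DN it did not stand for its list. Of the 3 genes tested there, 2 were lower with MLX-DN than in the GFP control and 1 higher (limma adjusted p under 0.05). Of all tested genes, 48.8% were lower and 32.6% higher in that comparison. With MLX-WT against the GFP control and MLX shRNA against NT shRNA, 2 of the 3 were higher and none lower. Of all tested genes, 27.6% and 30.8% were higher there, and 42.7% and 39.3% lower. Tendon markers summed to 87.6 to 127 FPKM over the libraries, nearly all of it Scx, with Tnmd near 0. Fat markers summed to 1.54 to 3.49 FPKM, with Adipoq and Plin1 at or near 0. Endothelial markers summed to under 1 FPKM in every library. Of the 2 leukocyte markers tested, Ptprc (CD45) was at 4.55 ± 0.176 FPKM with MLX-DN and at or near 0 in the other 4 groups. The other one did not differ between MLX-DN and the GFP control at a limma adjusted p under 0.05. The part of these cell-type markers in the results was not tested, and in bulk RNA fewer cells of a type and less RNA per cell cannot be told apart.

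The bases upstream of 4 of the genes are shown because Bgn and Fmod had the closest expression patterns of any pair, and because Aspn and Ogn lie near each other on chromosome 13 and had different patterns. RefSeq windows on GRCm38.p6, from 250 bases before to 50 after the start, were found for 5 of the 7 genes, with Dcn and Lum not among them. The 250 bases before the start are given on the coding strand, at chrX:73483351-73483600 (plus strand) for Bgn, chr1:134037004-134037253 (plus) for Fmod, chr13:49544193-49544442 (plus) for Aspn and chr13:49607765-49608014 (plus) for Ogn. Capitals mark CAGCTG, an E-box of the kind bound by myogenic factors, and TATAAA or its reverse complement.
Bgn: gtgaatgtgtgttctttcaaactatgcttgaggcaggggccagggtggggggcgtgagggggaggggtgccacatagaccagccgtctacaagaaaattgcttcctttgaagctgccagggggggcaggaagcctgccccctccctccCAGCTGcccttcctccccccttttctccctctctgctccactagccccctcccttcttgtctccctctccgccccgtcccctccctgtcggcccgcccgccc
Fmod: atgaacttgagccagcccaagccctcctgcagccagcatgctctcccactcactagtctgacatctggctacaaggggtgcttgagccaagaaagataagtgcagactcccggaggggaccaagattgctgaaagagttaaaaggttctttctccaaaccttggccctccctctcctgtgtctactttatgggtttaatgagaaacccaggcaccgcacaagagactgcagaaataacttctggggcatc
Aspn: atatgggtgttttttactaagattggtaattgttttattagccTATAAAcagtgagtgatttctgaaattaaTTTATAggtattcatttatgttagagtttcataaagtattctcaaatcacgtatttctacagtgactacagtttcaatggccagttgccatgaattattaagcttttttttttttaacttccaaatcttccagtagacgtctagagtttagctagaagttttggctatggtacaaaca
Ogn: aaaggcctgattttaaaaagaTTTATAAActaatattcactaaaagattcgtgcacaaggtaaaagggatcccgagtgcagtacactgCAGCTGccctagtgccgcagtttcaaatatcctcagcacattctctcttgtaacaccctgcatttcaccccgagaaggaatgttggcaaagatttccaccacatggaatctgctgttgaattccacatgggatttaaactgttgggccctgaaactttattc

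CACGTG, the E-box core that MLX and its partners bind, was searched on both strands. It was in none of the 5 windows of 300 bases, against 7.15% of all 32851 such windows. CAGCTG was in the Bgn window, 102 bases before the start, and in the Ogn window, 162 bases before it, and 16.3% of all windows held it. TATAAA was in the Aspn window at 207 and 178 bases before the start and in the Ogn window at 229 and 227 (overlapping matches on opposite strands), against 13.6% of all windows. The AP-1 motif TGANTCA was in none of the 5 and in 7.81% of all windows, and the SMAD motif CAGACA was in the Prelp window alone, after the start, and in 21.0% of all. The 250 bases had a GC content of 64.4% in Bgn, 55.6% in Prelp, 51.2% in Fmod, 42.0% in Ogn and 30.0% in Aspn, where the median of all windows was 52.4%. The bases just after the Ogn start were not found in a GENCODE transcript of Ogn, as they were for the other 4 genes, so its start and the distances from it are less certain. A match is a run of letters, and these searches say nothing of binding.

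**Figure D1:**
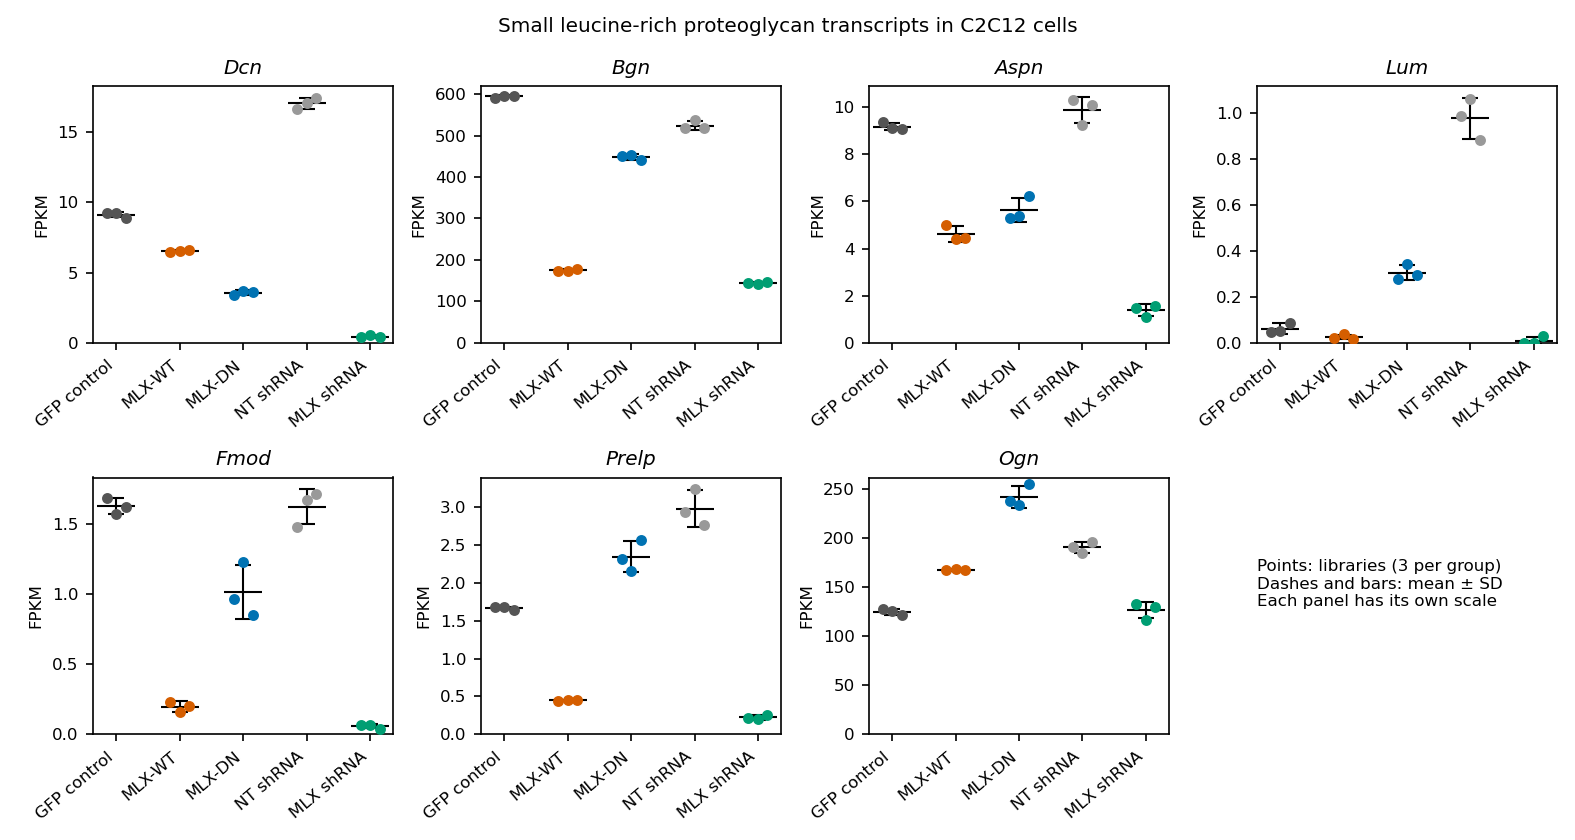
FPKM of the 7 genes in each library (points) with the group mean and SD (dashes and bars, n = 3), each panel on its own linear scale. Bgn and Ogn were above 100 FPKM in every library, and Dcn, Aspn, Fmod and Prelp were lowest with MLX shRNA.

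Bgn and Ogn made up nearly all of the measured family. Bgn ranked 114th of 23352 genes by mean FPKM in the GFP control and 540th with MLX shRNA, and Ogn ranked between 292nd (MLX-DN) and 611th (MLX shRNA). Dcn lay between 0.384 and 17.4 FPKM over the libraries and Aspn between 1.09 and 10.3, while Prelp reached 3.24, Fmod 1.71 and Lum 1.06. FPKM is scaled by transcript length, so these levels may be set beside each other.

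Bgn, whose protein carries chondroitin or dermatan sulfate chains, was at 591, 595 and 596 FPKM in the GFP control and at 517, 537 and 517 with NT shRNA. It was at 174, 173 and 179 FPKM with MLX-WT, at 452, 453 and 441 with MLX-DN, and at 144, 142 and 147 with MLX shRNA. No 2 groups overlapped, and the MLX-WT and MLX shRNA libraries were far below the other 9. Against the GFP control, mean Bgn was 3.39-fold lower with MLX-WT (difference −1.75 on the log2(FPKM + 2) scale used for every test, SE 0.02, limma adjusted p = 1.45e-17). With MLX-DN it was 1.32-fold lower (−0.40, SE 0.02, limma adjusted p = 1.01e-10). Against NT shRNA, MLX shRNA gave a 3.63-fold lower Bgn (−1.84, SE 0.02, limma adjusted p = 4.39e-18).

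Dcn, the best known of the family for holding growth factors, was at 9.24, 9.22 and 8.91 FPKM in the GFP control and 16.6, 17.1 and 17.4 with NT shRNA. MLX-WT libraries had 6.48, 6.55 and 6.62 FPKM, MLX-DN libraries 3.37, 3.68 and 3.63, and MLX shRNA libraries 0.384, 0.556 and 0.394. The 5 groups did not overlap, and MLX-DN was below MLX-WT, the opposite of the order for Bgn. Mean Dcn was 38.3-fold lower with MLX shRNA than with NT shRNA (log2 difference −2.96, SE 0.03, limma adjusted p = 1.86e-18). The scale understates that ratio, since the offset of 2 is larger than the knockdown value; with an offset of 0.1 the log2 difference was −4.99. Dcn was 1.39-fold lower with MLX-WT than in the GFP control (−0.38, limma adjusted p = 5.34e-08) and 2.56-fold lower with MLX-DN (limma adjusted p = 2.39e-13). The controls differed too, with Dcn 1.87-fold higher in NT shRNA than in the GFP control (0.77, limma adjusted p = 7.86e-12).

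Aspn, whose protein carries a run of aspartic acid near its start and no glycosaminoglycan chain, was at 9.35, 9.11 and 9.08 FPKM in the GFP control and 10.3, 9.26 and 10.1 with NT shRNA. It was at 5.02, 4.40 and 4.44 FPKM with MLX-WT, at 5.30, 5.39 and 6.22 with MLX-DN and at 1.48, 1.09 and 1.58 with MLX shRNA. Only the controls overlapped each other, and their difference of 0.09 on the log2 scale (95% interval −0.04 to 0.21) did not pass the test. Aspn was 1.99-fold lower with MLX-WT (−0.76, limma adjusted p = 1.27e-08), 1.63-fold lower with MLX-DN (−0.55, limma adjusted p = 2.75e-07) and 7.16-fold lower with MLX shRNA (−1.82, limma adjusted p = 3.95e-13), each against its own control.

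Among the class II genes, Fmod, which binds collagen and carries keratan sulfate, was at 1.69, 1.57 and 1.62 FPKM in the GFP control and 1.48, 1.67 and 1.71 with NT shRNA. It was at 0.232, 0.157 and 0.204 FPKM with MLX-WT, at 0.966, 1.23 and 0.850 with MLX-DN, and at 0.0649, 0.0659 and 0.0401 with MLX shRNA. The controls overlapped, and the other groups overlapped neither them nor each other. The MLX shRNA values rest on an estimated 6.51 to 7.60 reads per library, so counting error alone makes that level imprecise. Mean Fmod was 8.23-fold lower with MLX-WT (log2 difference −0.72, limma adjusted p = 3.03e-10) and 1.60-fold lower with MLX-DN (−0.27, limma adjusted p = 1.63e-05), both against the GFP control. It was 28.5-fold lower with MLX shRNA than with NT shRNA (−0.82, limma adjusted p = 8.03e-11). With an offset of 0.1 these log2 differences were −2.54, −0.65 and −3.46. Fmod reached 1 FPKM in 7 of 15 libraries, 6 of them controls. It thus passed the filter only through the controls, where it was highest.

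Prelp, which also binds collagen and the heparan sulfate chains of basement membranes, was at 1.68, 1.68 and 1.65 FPKM in the GFP control and 2.94, 3.24 and 2.76 with NT shRNA. It was at 0.440, 0.456 and 0.450 FPKM with MLX-WT, at 2.32, 2.15 and 2.57 with MLX-DN and at 0.213, 0.202 and 0.260 with MLX shRNA. No 2 groups overlapped, and MLX-DN lay between the 2 controls. Prelp was 3.72-fold lower with MLX-WT than in the GFP control (log2 difference −0.58, limma adjusted p = 1.83e-09) and 13.2-fold lower with MLX shRNA than with NT shRNA (−1.16, limma adjusted p = 5.32e-13). With MLX-DN it was 1.41-fold higher than in the GFP control (0.24, limma adjusted p = 2.30e-05), and lower than with NT shRNA (−0.20, limma adjusted p = 0.000284), so the direction turned with the control. With an offset of 0.1 the differences from the matched controls were −1.69, −3.24 and 0.46. Prelp reached 1 FPKM in 9 of 15 libraries, those of the 2 controls and MLX-DN. It thus passed the filter only through the groups where it was higher. By the GRCm38 annotation it shares 9.68% of its exon bases with an antisense gene, Gm15851, and the sources used here do not say if reads were counted by strand.

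Lum, the keratan sulfate proteoglycan best known from the cornea, reached 1 FPKM in 1 library and has no test. Its values were 0.983, 1.06 and 0.883 FPKM with NT shRNA and 0.278, 0.341 and 0.296 with MLX-DN. They were 0.0465, 0.0529 and 0.0874 FPKM in the GFP control (an estimated 5.88 to 9.38 reads) and 0.0218, 0.0371 and 0.0181 with MLX-WT (2.34 to 7.04 reads). With MLX shRNA they were 0, 0 and 0.0276 FPKM, where 3 reads would be worth 0.0327, 0.0332 and 0.0236. NT shRNA, MLX-DN and the GFP control did not overlap. Mean Lum was 15.6-fold higher with NT shRNA than in the GFP control, a wider gap between the controls than for any of the other 6 genes. No fold is given against MLX shRNA, which is at the limit of what this depth can detect.

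Ogn, whose protein is also known as mimecan, was the one tested gene called higher with MLX-WT than in the GFP control. It was at 128, 125 and 122 FPKM in the GFP control, at 167, 169 and 168 with MLX-WT, at 239, 234 and 255 with MLX-DN, at 192, 185 and 196 with NT shRNA, and at 133, 117 and 130 with MLX shRNA. The GFP control and MLX shRNA libraries overlapped at the bottom, the MLX-DN libraries were above all others, and NT shRNA lay above MLX-WT. Against the GFP control, mean Ogn was 1.34-fold higher with MLX-WT (log2 difference 0.42, SE 0.04, limma adjusted p = 2.87e-07) and 1.94-fold higher with MLX-DN (0.94, SE 0.04, limma adjusted p = 9.29e-12). It was 1.51-fold lower with MLX shRNA than with NT shRNA (−0.58, SE 0.04, limma adjusted p = 6.35e-09). NT shRNA itself was 1.53-fold above the GFP control (0.60, limma adjusted p = 3.50e-09), so both the MLX-WT and the MLX shRNA result depend on the control. Against NT shRNA, MLX-WT was lower (−0.18, limma adjusted p = 0.00121), and against the GFP control MLX shRNA did not pass (0.02, 95% interval −0.07 to 0.11, limma adjusted p = 0.705). The rise with MLX-DN held against NT shRNA (0.34, limma adjusted p = 3.56e-06).

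**Figure D2:**
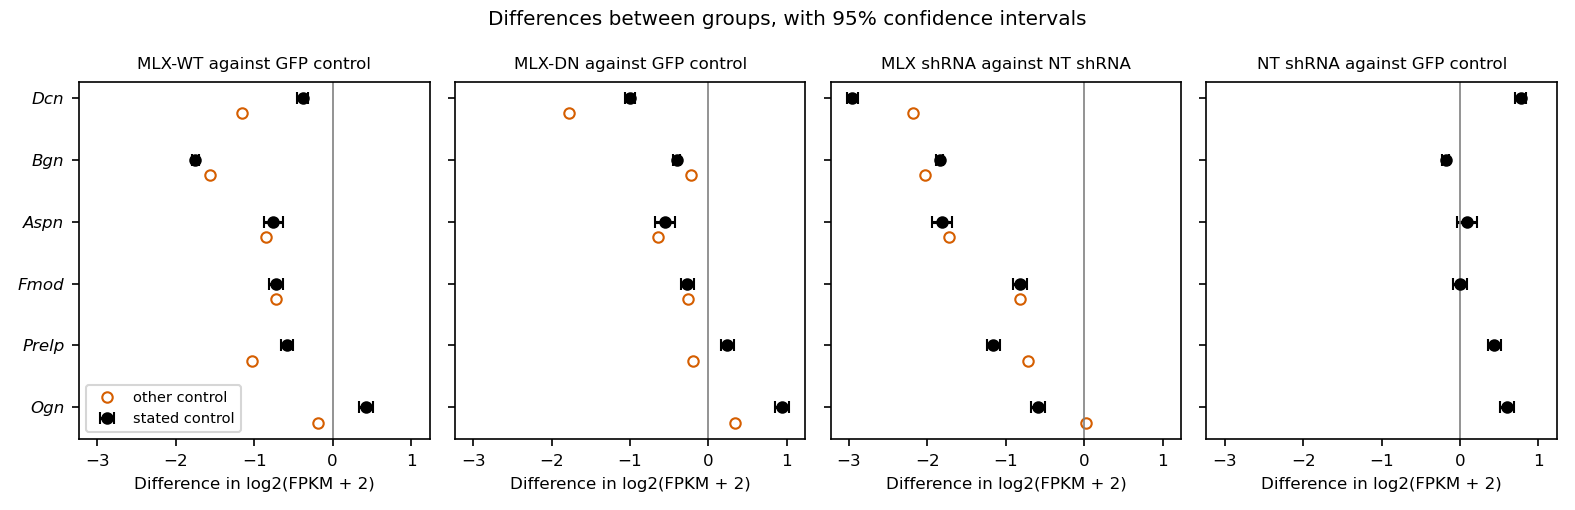
Difference in log2(FPKM + 2) for the 6 tested genes in 4 comparisons; filled points use the matched control, with 95% confidence intervals, and open points use the other control. Ogn with MLX-WT and Prelp with MLX-DN lie on opposite sides of 0 for the 2 controls.

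A gene is called here when its limma adjusted p is under 0.05. With MLX-WT, 5 of the 6 tested genes fell and Ogn rose against the GFP control. Across all 11945 genes, 42.7% were called lower and 27.6% higher in this comparison (37.8% higher and 31.6% lower after median centring, which sets each library to the same median), so a gene that passed was common. The median log2 difference of the 6 was −0.65, against −0.05 for all tested genes. The genes that fell ranged from Dcn at −0.38 to Bgn at −1.75. Among them, Fmod and Prelp passed the filter only through groups where they were higher. Against NT shRNA all 6 tested genes were lower with MLX-WT, where 44.3% of all genes were lower and 25.7% higher. All 3 tested fibroblast markers were higher with MLX-WT than in the GFP control (median 0.34). Against NT shRNA 1 of them was higher and 2 were lower. Their part in the differences was not tested.

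With MLX-DN, 4 tested genes fell against the GFP control (Dcn, Aspn, Bgn and Fmod) and 2 rose (Ogn and Prelp). The background was 48.8% lower and 32.6% higher, which became 39.0% and 42.0% after median centring and 39.97% and 41.2% after quantile normalization. Their median was −0.34 and that of all genes −0.08. Against NT shRNA 5 of the 6 were lower and Ogn alone was higher, where 48.7% of all genes were lower and 21.0% higher. Ptprc stood at 4.55 FPKM in these libraries only, while the other tested leukocyte marker was not called against the GFP control. Of the fibroblast markers, Ly6a (33.7 FPKM beside 50.7 in the GFP control) and Pdgfra were lower and Dpt higher (1.05 beside 0.439). Against NT shRNA all 3 of these fibroblast markers were lower. The part of any of these markers in the differences was not tested.

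With MLX shRNA, all 6 tested genes fell against NT shRNA, in a background of 39.3% lower and 30.8% higher (31.1% and 39.1% after median centring). Their median was −1.49 and that of all genes −0.02, and the differences ran from Ogn at −0.58 to Dcn at −2.96. Here too, Fmod and Prelp passed the filter only through groups where they were higher. Against the GFP control, 5 of the 6 were lower and Ogn was not called, where 42.8% of all genes were lower and 37.3% higher. The differences were then −2.03 for Bgn, −1.73 for Aspn and −0.82 for Fmod, beside −1.84, −1.82 and −0.82 against NT shRNA, and −2.19 for Dcn and −0.72 for Prelp, beside −2.96 and −1.16. The fibroblast markers Ly6a, Pdgfra and Dpt were lower with MLX shRNA than with NT shRNA (48.7 beside 69.6, 0.886 beside 2.06 and 0.647 beside 4.65 FPKM). Against the GFP control 1 of these 3 was lower and 2 were not called. The part of these markers in the differences was not tested.

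Between the overexpression groups, MLX-DN was above MLX-WT for 5 of the 6 tested genes and below it for Dcn, with 33.2% of all genes higher and 38.9% lower. Bgn was 2.56-fold higher with MLX-DN than with MLX-WT (log2 difference 1.35, limma adjusted p = 1.80e-16), Prelp 5.23-fold (0.83, limma adjusted p = 3.63e-11) and Fmod 5.13-fold (0.45, limma adjusted p = 8.11e-08). For Fmod and Prelp an offset of 0.1 gave 1.90 and 2.15. Ogn was 1.44-fold higher and Aspn 1.22-fold higher, and Dcn was 1.84-fold lower (−0.62, limma adjusted p = 1.89e-10).

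Between the controls, 3 of the 6 tested genes (Dcn, Prelp and Ogn) were higher with NT shRNA than in the GFP control and Bgn was lower (−0.18, limma adjusted p = 2.13e-06), while Aspn and Fmod did not pass. In this comparison 37.0% of all genes were called higher and 37.1% lower, so 4 calls among 6 are no more than the background. Bgn lost its call under quantile normalization (−0.02, limma adjusted p = 0.367).

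The MLX shRNA and MLX-DN effects, each against its own control, were compared as a difference of differences. All 6 tested genes were called with the more negative value for MLX shRNA, as were 32.0% of all genes, while 42.8% were called the reverse. The gap was −1.96 for Dcn (SE 0.05), −1.53 for Ogn, −1.44 for Bgn, −1.40 for Prelp, −1.26 for Aspn and −0.55 for Fmod, and the highest limma adjusted p was 4.19e-07. A further comparison, of the MLX-WT and MLX shRNA effects, was chosen after the values had been seen. Here 5 of the 6 passed, all with a lower value for MLX shRNA, where 29.5% of all genes did so and 35.9% the reverse. Dcn (2.58), Aspn (1.06) and Prelp (0.58) fell further with MLX shRNA, and the effects on Ogn had opposite signs (1.01). Bgn differed by 0.10 (95% interval 0.03 to 0.16, limma adjusted p = 0.0134). Fmod differed by 0.09 (95% interval −0.03 to 0.21), which did not pass, but by 0.91 with an offset of 0.1 (limma adjusted p = 0.000704).

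**Figure D3:**
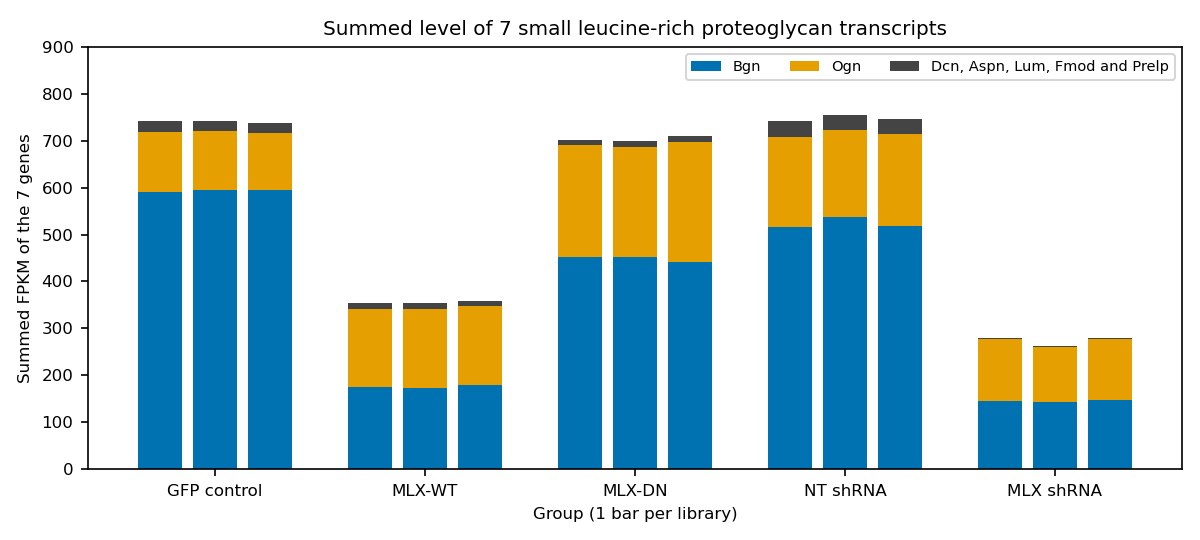
Summed FPKM of the 7 genes in each library, split into Bgn, Ogn and the other 5 genes, 1 bar per library on an axis from 0. MLX-WT and MLX shRNA bars reach at most 359, and the other 9 bars at least 699.9.

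Added together, the 7 transcripts came to 741 ± 1.88 FPKM (SD, n = 3) in the GFP control, 747 ± 6.75 with NT shRNA and 704 ± 5.26 with MLX-DN. The sum was 355 ± 2.97 with MLX-WT and 273 ± 10.3 with MLX shRNA. The make-up differed as well as the sum. Bgn gave 80.2% of the sum in the GFP control, 70.1% with NT shRNA and 63.7% with MLX-DN, but 49.4% with MLX-WT and 52.9% with MLX shRNA. The ratio of Bgn to Ogn was 4.75 ± 0.145 in the GFP control, 2.75 ± 0.140 with NT shRNA, 1.85 ± 0.110 with MLX-DN, 1.14 ± 0.0676 with MLX shRNA and 1.04 ± 0.0223 with MLX-WT. The other 5 genes together gave 2.92%, 4.35%, 1.83%, 0.773% and 3.33% of the sum in the same order.

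**Figure D4:**
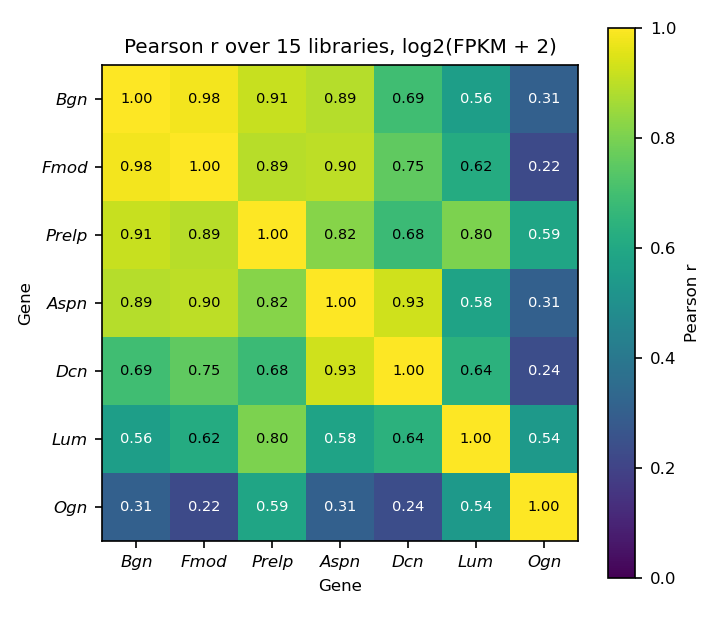
Pearson r of log2(FPKM + 2) between each pair of the 7 genes over the 15 libraries, with the value in each cell. Bgn and Fmod have the highest r, and the row of Ogn holds the lowest values.

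Over the 15 libraries, Bgn and Fmod had the most similar patterns (r = 0.98), followed by Dcn and Aspn (0.93) and by Bgn and Prelp (0.91). Ogn had r of 0.22 to 0.59 with the other 6. These values describe 5 groups of 3 libraries and share the differences between groups, so they carry no p. Among other tested genes, Nav1, a guidance-related cytoskeletal gene, was closest to Bgn (0.99) and was also among the 3 closest to Fmod (0.98), with Pdzrn3 in both sets (0.99 and 0.98), Agfg1 for Bgn (0.99) and Tead3 for Fmod (0.99). The Nav1 means were 13.53 FPKM in the GFP control, 8.72 with MLX-WT, 12.61 with MLX-DN, 13.6 with NT shRNA and 8.06 with MLX shRNA. App, Pacs2 and Cebpb were closest to Dcn (0.99, 0.98 and 0.98), and Lgmn, Sulf1 and Colec12 to Aspn (0.99, 0.99 and 0.98). Col5a2, a chain of the collagen V that sets fibril width, was closest to Prelp (0.99), with Gpr39 and Slc16a3 next (0.98 and 0.98). Fbxo30, Kansl1l and Pmepa1, the last of these an inhibitor of transforming growth factor β signalling, were closest to Ogn (0.99 each).

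The genes lie in groups in the genome (GRCm38 annotation). Dcn and Lum are neighbours on chromosome 10, next to Kera and Epyc, which were at or near 0 FPKM in every group. Fmod and Prelp are neighbours on chromosome 1, next to Optc, at 0.0721 to 0.181 FPKM. Aspn and Ogn lie on chromosome 13 with Ecm2 and Omd, inside the region of Cenpp on the other strand; Aspn shares 0.297% of its exon bases with Cenpp and Ogn none. Neighbours did not share a pattern throughout. In the chromosome 13 group Ogn rose with MLX-DN while Aspn fell, and mean Omd, which encodes osteomodulin, was 1.45 FPKM in the GFP control, 1.49 with MLX-DN, 2.22 with NT shRNA and 0.626 with MLX shRNA. Of 10 further genes of the family, 4 were tested (Ecm2, Omd, Tsku and Podnl1). Against their own controls, with MLX shRNA 3 of these fell and none rose, Omd (−0.68) and Ecm2 (−0.42) having the lowest p. Ecm2 averaged 1.12 FPKM in the GFP control and 1.19 with NT shRNA and was under 1 FPKM in every MLX library. It thus passed the filter only through the controls, where it was highest. With MLX-WT 1 rose, Podnl1 (0.50), and 2 fell, Tsku (−0.46) having the lowest p. With MLX-DN 1 rose, Podnl1 (1.22), and 2 fell, Tsku (−0.15) among them. Their median differences were −0.41, −0.16 and −0.04. Over all tested genes, 39.3% were lower and 30.8% higher with MLX shRNA. For MLX-WT these shares were 42.7% and 27.6%, and for MLX-DN 48.8% and 32.6%, so calls were common. Podnl1 was at 13.9 FPKM with NT shRNA, and against that control it was lower with MLX-WT (−0.76) and not called with MLX-DN (−0.04). Against NT shRNA none of the 4 rose with either construct, while 4 fell with MLX-WT and 3 with MLX-DN. Of all tested genes, 44.3% and 48.7% were lower in those comparisons.

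**Figure D5:**
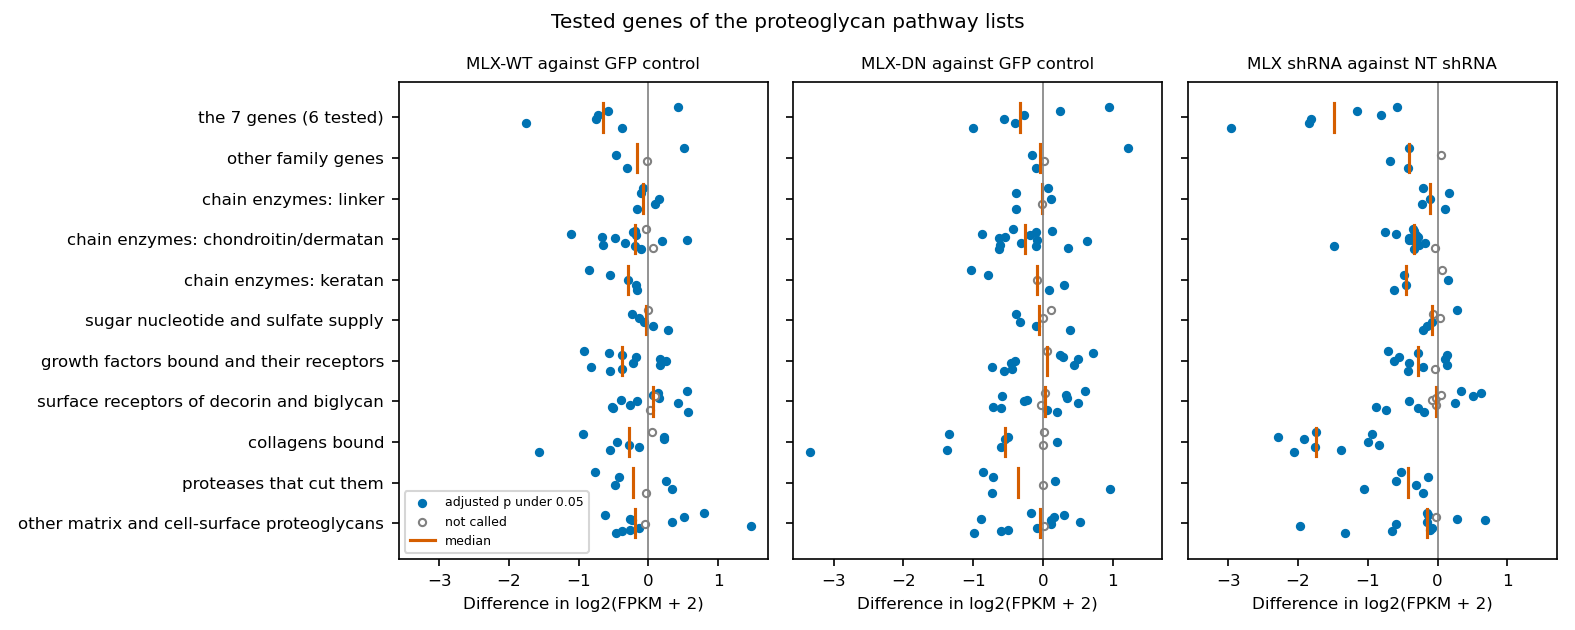
Difference in log2(FPKM + 2) of each tested gene in the family and in 10 lists of genes around it, for 3 comparisons; filled points passed limma's adjusted p of 0.05 and bars are list medians. In the MLX shRNA panel the 9 collagen genes and the 6 family genes all lie below 0.

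Counts in the lists that follow are against the matched control, beside 42.7% of all genes lower and 27.6% higher for MLX-WT, 48.8% and 32.6% for MLX-DN, and 39.3% and 30.8% for MLX shRNA. Medians over all genes were −0.05, −0.08 and −0.02. Much of what the lists show depends on the control. Of the 20 genes named per comparison from the family and these lists, 11 of MLX-WT, 13 of MLX-DN and 16 of MLX shRNA kept their direction and call against the other control. The exceptions are given with their values against the other control. Since only the 2 genes of lowest p are named per list and comparison, a gene not named in a comparison may have changed there too. The enzymes that build the sulfated chains were counted by chain. For chondroitin and dermatan sulfate, 14 of 16 genes were tested. With MLX shRNA 13 fell and none rose (median −0.34), with Chsy1, a chain polymerase, at −1.48 (15.9 FPKM with NT shRNA and 4.42 with MLX shRNA) and Dse, the epimerase that makes dermatan sulfate, at −0.75. With MLX-WT 10 fell and 2 rose (median −0.19), with the sulfotransferases Chst15 at −1.10 and Chst11 at 0.55. With MLX-DN 11 fell and 3 rose (median −0.25), with Chst15 at −0.87 and Chst3 at 0.63. Chst3 turned to −0.12 against NT shRNA. For keratan sulfate, the chain of Fmod and Lum, 5 of 7 genes were tested. With MLX-WT 5 fell (median −0.29), the sulfotransferases Chst2 (−0.85) and Chst1 (−0.55) first, but against NT shRNA Chst2 was not called (0.02), Chst1 was higher (0.10), and 3 fell and 1 rose. With MLX-DN 2 fell, again Chst2 (−1.03) and Chst1 (−0.79), and 2 rose (median −0.09). With MLX shRNA 3 fell and 1 rose (median −0.46), with the chain-extending B3gnt2 (−0.62) and B4galt1 (−0.46) of lowest p. The linker enzymes, 5 of 6 tested, moved little. With MLX-WT 2 rose and 3 fell, B3galt6 at 0.15 and Xylt2 at −0.17 (−0.08 and, not called, −0.0047 against NT shRNA). With MLX-DN 2 rose and 2 fell, B3gat3 and Xylt2 both at −0.39, and with MLX shRNA 2 rose and 3 fell, Fam20b at −0.20 and B4galt7 at −0.22 (−0.07, not called, against the GFP control). The medians were −0.08, −0.01 and −0.11. Of the 7 genes for sugar nucleotide and sulfate supply 6 were tested, with medians of −0.03, −0.05 and −0.07. Ugdh, which makes UDP-glucuronic acid, was higher with MLX-WT (0.28) and MLX-DN (0.39) and lower with MLX shRNA (−0.21) than the matched control, and each direction turned with the other control (−0.36, −0.25 and 0.43). Slc35b2 (−0.23) fell with MLX-WT, Papss1 (−0.33) fell with MLX-DN and Impad1 (0.27) rose with MLX shRNA. In all, 2 of these rose and 3 fell with MLX-WT, 1 rose and 3 fell with MLX-DN, and 1 rose and 3 fell with MLX shRNA.

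Of the collagens that these proteins coat, 9 of 10 were tested. With MLX shRNA all 9 tested genes fell (median −1.74), also against the GFP control (median −1.96), and Col6a1 (−1.92) and Col3a1 (−1.75) had the lowest p. Mean Col3a1 was 985 FPKM with NT shRNA and 291 with MLX shRNA. With MLX-WT 6 fell and 2 rose (median −0.28), with Col1a1 at −1.56 and Col6a3 at −0.94. Col6a3 was higher with MLX-WT than with NT shRNA (0.93), where 5 collagens fell and 4 rose. With MLX-DN 6 fell and 1 rose (median −0.55), with Col1a1 at −3.34 and Col1a2 at −1.37. Col1a1 was at 443 FPKM in the GFP control, 148 with MLX-WT and 41.9 with MLX-DN, so unlike Bgn it was lower with MLX-DN than with MLX-WT (log2 difference −1.78, limma adjusted p = 2.45e-15).

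Of the growth factors bound by this family and their receptors, 11 of 15 were tested, with 3 rising and 8 falling with MLX-WT (median −0.37), 5 and 5 with MLX-DN (0.05), and 3 and 7 with MLX shRNA (−0.28). Fst, which encodes follistatin, an activin and myostatin antagonist, fell with MLX-WT (−0.92) and with MLX shRNA (−0.71). Tgfbr2 fell with MLX shRNA (−0.41). Tgfb3 was lower with MLX-WT (−0.83) and MLX-DN (−0.74) than in the GFP control, but was not called against NT shRNA (−0.04 and 0.05). Ctgf was higher with MLX-DN than in the GFP control (0.72) and lower than with NT shRNA (−0.31). Of the surface receptors, 13 of 14 were tested and the calls were mixed, with 6 rising and 5 falling in each of the MLX-WT and MLX-DN comparisons, and 4 and 5 with MLX shRNA (medians 0.06, 0.03 and −0.03). Met, bound by decorin, rose with MLX-WT (0.57), and Musk, bound by biglycan at the neuromuscular junction, rose with MLX-WT (0.55) and MLX-DN (0.60). Lrp1, through which decorin is taken up, fell with MLX-DN (−0.71) and MLX shRNA (−0.88), and Egfr fell with MLX shRNA (−0.73). Mean Lrp1 with MLX-WT was 74.7 FPKM, which was lower than in the GFP control (108) but not than with NT shRNA (72.6). Mean Musk was also higher with MLX shRNA (35.5 FPKM beside 27.5 with NT shRNA).

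Of the proteases that cut these proteins, 6 of 11 were tested. With MLX shRNA all 6 tested genes fell (median −0.42), Mmp2 (−1.06) and Adamts1 (−0.60) first, while against the GFP control 5 fell and Mmp2 was higher (0.66). With MLX-WT 3 fell and 2 rose (median −0.23), with Adamts5 at −0.77 and Mmp14 at −0.48. Adamts5 averaged 2.77 FPKM in the GFP control and 1.27 with NT shRNA, and was under 1 FPKM in every MLX library. It thus passed the filter only through the controls, where it was highest. With MLX-DN 3 fell, Adamts5 (−0.85) among them, and 2 rose, Mmp2 (0.96) among them (median −0.35). Against NT shRNA 5 fell and none rose, with Mmp2 at −0.75. Of 16 other matrix and cell-surface proteoglycans, 12 were tested, with 4 rising and 7 falling with MLX-WT (median −0.19), 5 and 6 with MLX-DN (−0.04), and 2 and 9 with MLX shRNA (−0.14). Vcan, the large chondroitin sulfate proteoglycan versican, fell with MLX-DN (−0.99) and MLX shRNA (−1.33), Sdc3 was lower with MLX-DN than in the GFP control (−0.89) but was not called against NT shRNA (−0.03), and Cspg4 fell with MLX-WT (−0.63). Gpc4, a glypican, was at 3.599 FPKM with MLX-WT and 5.996 with NT shRNA but at 0.0144 in the GFP control, 0.0263 with MLX-DN and 0.0302 with MLX shRNA, so 1 control had it and the other nearly lacked it. Its differences were 1.47 for MLX-WT and −1.98 for MLX shRNA, each against its own control, and −0.52 and 0.01 (not called) against the other.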

How the data were processed

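Messenger RNA was sequenced in 15 libraries. The values deposited by the authors form 1 table of log2 FPKM for 23352 genes. Its lowest value was exactly 1, so it was read as log2(FPKM + 2), giving FPKM as 2 to that power minus 2; a form 1 + log2(FPKM + 1) would halve every FPKM and leave ratios and differences as they are. Per the submitters' processing notes, the tools were CASAVA, TopHat2 and STAR, in roles not given, and the mouse build was mm9. The kit was stranded, per the labels' protocols; the sources used here do not give how reads were counted. Replicate numbers came from the labels.

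Genes with at least 1 FPKM in 3 or more libraries were tested (11945) with limma 3.58.1 (R 4.3.3), fitted to the log2 table with 1 mean per group over all 15 libraries, with a variance trend and Benjamini-Hochberg adjustment within each comparison at 0.05. Called means passing it. Fold values are ratios of mean FPKM; log2 differences understate the change of low genes. Depth was read from how low FPKM values are spaced; of these, 66.8% to 71.2% lay within 0.05 of a whole read (20.7% to 27.9% at the next best depths); read numbers cover counting error only. The fit was tested on simulated data.

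Genes named are the 7, the 2 of lowest p in each list, the 3 of highest r with each tested gene and Mlx, together with family neighbours and markers. The group means given for Omd, Nav1, Chsy1, Col1a1, Col3a1 and Gpc4 were added after they were seen. The 7 genes, the lists and the tests were chosen with earlier results of these data known. Alternatives varied the offset, the filter, the scaling, the variance model and the control, added a replicate block, or left out 1 library at a time; the comparison of the MLX-WT with the MLX shRNA effect, and its offsets, were chosen after seeing the data, as was the other control for the lists. Coordinates are those of the RefSeq promoters on GRCm38.p6 only.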

Additional observations from a re-analysis of the deposited data

Results flagged for a closer look

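Each of the 6 tested genes responded differently to MLX shRNA and to MLX-DN, each set against its own control, by limma's test of the difference itself. The differences of effects, MLX shRNA minus MLX-DN on the log2(FPKM + 2) scale, were −1.96 for Dcn, −1.44 for Bgn, −1.26 for Aspn, −0.55 for Fmod, −1.40 for Prelp and −1.53 for Ogn. For Ogn and Prelp the effects had opposite signs, and for the other 4 both were negative. Such differences were common, with 32.0% of all tested genes called lower and 42.8% higher. The 2 effects use different controls, and Dcn, Prelp, Ogn and Bgn differed between those controls.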

How the results depend on the processing

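The number of the 7 genes called stayed within 1.5 times its value under all 101 alternatives. That limit ignores direction and was met even where 4 genes were called instead of 6, so it is a loose check. Of 594 alternatives for single genes, 586 kept direction and call. Few of these alternatives changed the control, so the total says little of that choice. Against the other control, Ogn with MLX-WT turned to −0.18, Prelp with MLX-DN to −0.20 and Ogn with MLX shRNA to 0.018. Fmod between the controls, not called in any setting, turned to 0.039 under quantile normalization, 0.0091 without GFP control replicate 1 and 0.026 without NT shRNA replicate 1 (range −0.021 to 0.026 over single libraries left out), and Bgn there lost its call under quantile normalization (−0.02, limma adjusted p = 0.367). Fmod in the comparison of the MLX-WT with the MLX shRNA effect became called with an offset of 0.1 (0.91). The median r between pairs of genes was 0.755, and 0.703 under quantile normalization. A minimum of 5 FPKM left 4 of the genes tested, without Fmod and Prelp, and 3 or 4 of them called in each comparison.

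With a replicate block, the genes called were 6, 6, 6, 6, 4 and 6 in the 6 comparisons, as without it, and no single call changed. Deviations of same-numbered libraries correlated at −0.09 to 0.15, which gives no sign of pairing by number but cannot exclude it. Depth limits Lum, and Fmod with MLX shRNA.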
